A study of Mus musculus with 138 samples.

Results

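The suture mesenchyme (SM) of the mouse coronal suture, the tissue that keeps the frontal and parietal bones apart, was compared with the osteogenic front (OF) of each bone at E18.5, shortly before birth. The members were the captured SM and OF libraries of this suture and age whose titles lack the ending _C, called first libraries here. They were 15 of the 138 samples of the series. There were 5 of SM, 5 of the frontal OF (FR) and 5 of the parietal OF (PA). All came from wild-type C57BL/6J embryos, without any treatment. Each region was cut out by laser-capture microdissection, and its RNA was amplified before Nextera XT libraries were made. The 3 regions of a replicate number carry 1 litter id, so that SM, FR and PA of the same number were taken as 1 embryo. The ids of replicates 1 and 2 share a leading code, and those of replicates 3 to 5 share another. How many sections went into a library is not given in the sources used here.

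In the growing skull vault the OFs are the advancing edges of the bones, where progenitors become osteoblasts and lay down a collagen matrix that then mineralizes. SM holds the fibroblast-like cells and progenitors between the edges and stays unmineralized, which lets the skull expand. At the coronal suture the bone edges overlap, the frontal bone comes from neural crest and the parietal bone from mesoderm, and the mesenchyme between them is of mesodermal origin. WNT, BMP, hedgehog and FGF signals pass between these tissues, and loss of their balance is known to fuse the coronal suture in craniosynostosis.

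The libraries held 20133332 to 29099736 counts on genes, of which 20.7 to 27.5% were mitochondrial, and 21273 to 25162 genes with a count. Levels are given as CPM, counts-per-million of a library size scaled by the trimmed mean of M-values (TMM). A fold change is the log2 difference between regions fitted by edgeR with the embryo as a block, and a gene was called when its Benjamini-Hochberg adjusted p was below 0.05 over 19084 genes. The first principal component, with 22.4% of the variance, put 4 of the 5 FR libraries at -49.6 to -17.4, with the SM libraries at -76.1 to -27.8, and the PA libraries at 30.2 to 122. FR of embryo 2 stood at 85.5, among the PA libraries, and SM of embryo 2 at the top of the second component, at 138.6. Counts are therefore also given without embryo 2. No 2 libraries of a region agreed within counting error.

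**Figure D1:**
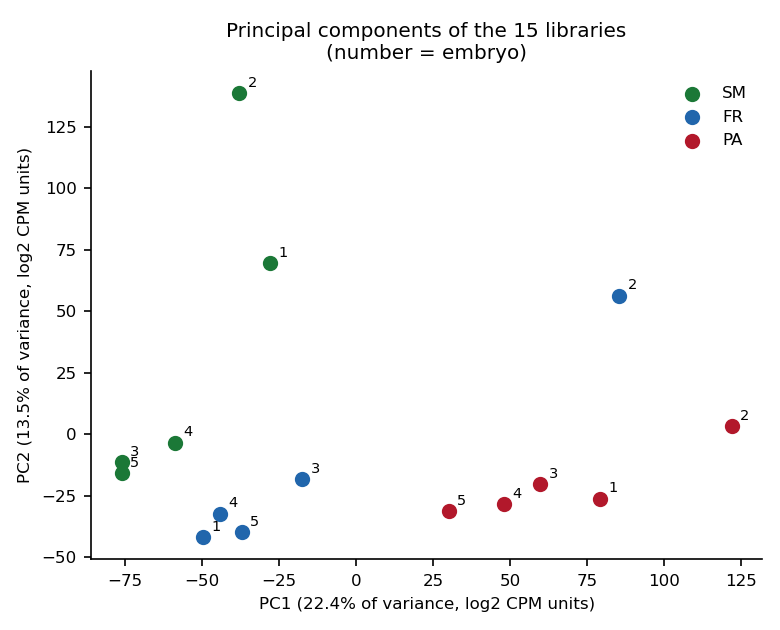
Principal components of log2 CPM over all tested genes. Each point is a library, coloured by region and numbered by embryo, the horizontal axis is the first component (22.4% of the variance) and the vertical axis the second (13.5%). The PA libraries lie to the right, SM of embryo 2 at the top, and FR of embryo 2 away from the other FR libraries.

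SM differed from the parietal front at more genes than from the frontal front. Against FR, 141 genes were higher in SM (0.739% of those tested) and 402 lower (2.11%), 543 in all (2.85%). Against PA, 1430 genes were higher in SM (7.49%) and 1608 lower (8.43%), 3038 in all (15.9%). FR itself was higher than PA at 617 genes (3.23%) and lower at 343 (1.8%), 960 in all (5.03%). Over all genes the median absolute log2 fold change was 0.31 against FR and 0.48 against PA. Scaling by total counts without TMM moved the median of all genes against PA from 0.06 to 0.31 and the share of calls that were higher in SM from 47.1% to 74.8%, whereas against FR that share went from 26.0% to 35.7%. Without embryo 2 the calls were 153 higher and 323 lower against FR, and 1330 higher and 1477 lower against PA. Without embryo 3, 4 or 5 there were 81 to 85 higher against FR, without embryo 3 or 5 250 and 236 lower against FR, and without embryo 3 1044 lower against PA. A bulk library cannot tell apart fewer cells of a type from less RNA per cell, and this holds for every level given here.

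Both comparisons use the same SM libraries, and by the definition used here a shared gene passed in each. There were 130 shared genes higher in SM (0.681% of those tested) and 382 shared genes lower in SM (2%). In 124 of the 130 and 372 of the 382, SM lay on the same side of both fronts in every embryo. The genes were chosen by a test blocked on these same embryos, so this follows largely from the choice. Without embryo 2 there were 130 shared genes higher and 295 lower, of which 110 and 285 had also been called with it. Second libraries are those whose titles end in _C. They were given for SM and PA of embryos 1, 3 and 4 and for FR of embryos 1, 3 and 5. The labels repeat the litter id and protocol of the first libraries, and whether the second are new captures, amplifications or preparations of the same RNA is not given in the sources used here. With these in place of the first, which sets SM and FR of embryos 4 and 5 from different library sets against each other, there were 23 shared genes higher and 182 lower, of which 20 and 160 had been called with the first. Among 468 tested genes of the lists described here, 42 of 88 calls against FR and 168 of 244 against PA were then kept, and 0 changed direction. Libraries without a second one stayed in this fit, so a call lost in it was not tested in second libraries alone. Calls given below as lost with second libraries refer to this mixed fit. Without embryo 3, 4 or 5 there were 74 to 77 shared genes higher, and without embryo 3 or 5 240 and 228 lower. The median fold changes of the 130 genes were 0.91 against FR and 1.33 against PA, and those of the 382 genes -1.27 and -1.84. The mean level of FR lay between those of SM and PA for 100 of the 130 genes and for 360 of the 382. Both sets were chosen on these same libraries, and the share over all genes was not counted. No order of the regions is read from this. Among the 382, 133 were also lower in FR than in PA, beside 1.8% of all genes, although these libraries had served to choose them. A single gene was called in opposite directions (0.00524%), Ntrk3, the receptor for neurotrophin-3, named here after its values were seen. It was at 1.05 to 9.37 CPM in SM and 5.37 to 30.4 CPM in FR, and in PA it had 0 counts in 4 libraries and 0.0411 CPM in the other. Its levels in SM and FR overlapped, and both stood above all of PA.

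**Figure D2:**
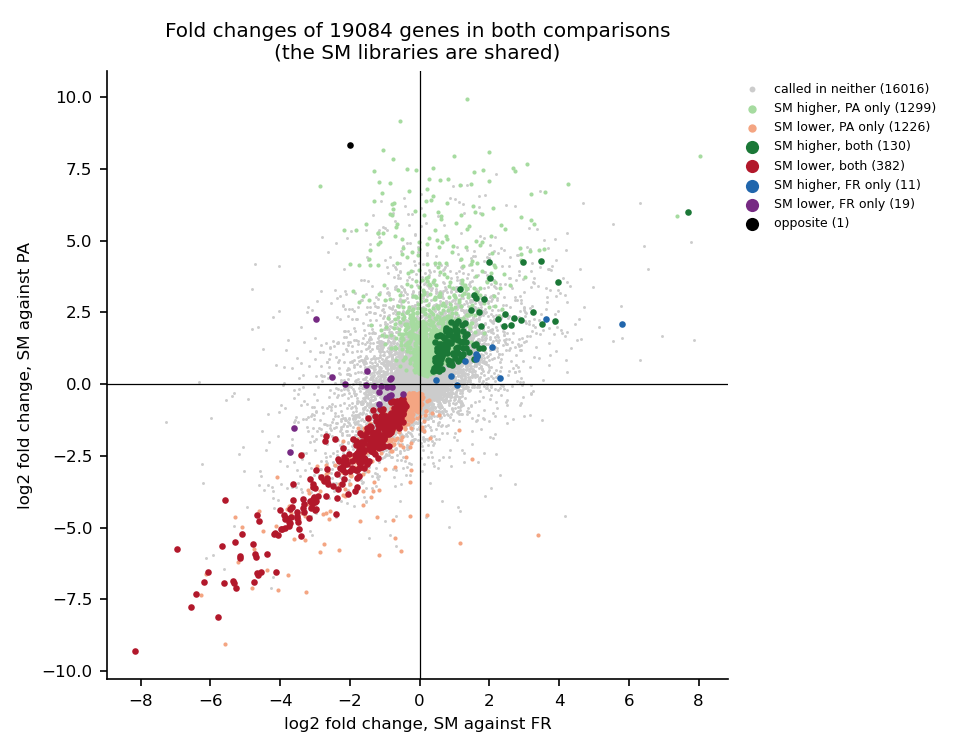
Fitted log2 fold change of all tested genes for SM against FR (horizontal) and SM against PA (vertical), coloured by where they were called. The 382 genes lower in SM than in both fronts reach below -8 on the horizontal axis and form the lower left arm, the 1299 higher against PA only spread upwards, and Ntrk3 lies alone in the upper left.

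Genes of the osteoblast were lower in SM than in both fronts. Of 22 tested members of an osteoblast list, 17 were lower and 1 higher against FR, and 18 lower and 1 higher against PA, with medians of -1.38 and -2.08 beside medians of 0.00 and 0.06 over all genes. Over all genes 2.85% were called against FR and 15.9% against PA in either direction, and the counts of each list given here stand beside these shares. Without embryo 2 the counts were 17 lower and 1 higher in each comparison. In the fit with second libraries, 12 were lower and 0 higher against FR, and 17 lower and 1 higher against PA. Ibsp, which encodes bone sialoprotein of the mineralizing matrix, had 76.1, 30.02, 245, 351 and 23.8 CPM in SM of embryos 1 to 5. In FR the same embryos had 2001, 4127, 2132, 1882 and 1888 CPM, and in PA 6935, 11141, 7532, 4485 and 5012 CPM. The 3 regions did not overlap, and SM of embryos 3 and 4 stood above the other SM libraries. Ibsp differed by -4.38 ± 0.59 (SE, 5 embryos) between SM and FR (edgeR adjusted p = 0.000263) and by -5.92 ± 0.62 between SM and PA (adjusted p = 3.75e-06). Dmp1, a phosphoprotein of osteocytes and late osteoblasts, had 0.137, 0.042, 1.78, 0.0935 and 0.352 CPM in SM, 2.81, 7.27, 8.76, 16.6 and 23.4 CPM in FR and 22.5, 32.8, 32.8, 62.9 and 51.3 CPM in PA. SM lay below every library of both fronts, and FR of embryo 5 just above PA of embryo 1. Its fold changes were -4.64 ± 0.60 against FR (edgeR adjusted p = 0.000184) and -6.64 ± 0.62 against PA (adjusted p = 1.2e-06), and it was lower in FR than in PA as well, by -2.004 ± 0.47 (adjusted p = 0.0187).

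Ibsp and Dmp1 are neighbours, at chr5:104299171-104311469 and chr5:104202613-104214102 on mm10, in a run of bone matrix genes of which Spp1 (osteopontin, chr5:104435118-104441050) was also lower in SM. Spp1 had 4.91 to 9.94 CPM in SM, 9.88 to 77.9 CPM in FR and 24.1 to 183 CPM in PA. Its lowest FR library touched the highest SM library, and the fold changes were -2.17 ± 0.40 (edgeR adjusted p = 0.00425) and -3.30 ± 0.42 (adjusted p = 2.71e-05). Dspp and Mepe of the same run were too low for the test. The other late bone genes were also near zero: the osteocalcin genes Bglap and Bglap2, whose near-identical sequences make their split uncertain, had at most 18 and 19 counts in a library.

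The promoters of Ibsp, Dmp1 and Dkk1 are shown as examples from the genes lower in SM than in both fronts. They cover 250 bases before to 50 after a RefSeq start site on GRCm38.p6, 5′ to 3′ on the strand of the gene, and capitals mark the letters TGTGGT or their reverse complement ACCACA, the core sequence recognised by RUNX factors, read on both strands. Dkk1, a secreted inhibitor of WNT signalling described below, was chosen with Ibsp and Dmp1 after the values were seen.
Ibsp, chr5:104299037-104299336, plus strand: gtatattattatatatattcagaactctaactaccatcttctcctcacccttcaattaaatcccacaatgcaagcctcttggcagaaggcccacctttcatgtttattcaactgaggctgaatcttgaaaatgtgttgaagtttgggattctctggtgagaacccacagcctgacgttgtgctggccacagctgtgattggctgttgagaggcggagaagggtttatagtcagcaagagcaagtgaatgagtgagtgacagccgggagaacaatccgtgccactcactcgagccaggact
Dmp1, upstream start, chr5:104197325-104197624, plus strand: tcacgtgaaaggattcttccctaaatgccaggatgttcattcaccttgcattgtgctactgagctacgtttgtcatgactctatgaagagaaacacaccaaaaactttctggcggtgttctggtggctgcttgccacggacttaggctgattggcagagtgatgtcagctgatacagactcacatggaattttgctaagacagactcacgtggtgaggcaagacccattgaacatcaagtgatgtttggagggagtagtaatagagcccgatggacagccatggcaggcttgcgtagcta
Dmp1, downstream start, chr5:104202367-104202666, plus strand: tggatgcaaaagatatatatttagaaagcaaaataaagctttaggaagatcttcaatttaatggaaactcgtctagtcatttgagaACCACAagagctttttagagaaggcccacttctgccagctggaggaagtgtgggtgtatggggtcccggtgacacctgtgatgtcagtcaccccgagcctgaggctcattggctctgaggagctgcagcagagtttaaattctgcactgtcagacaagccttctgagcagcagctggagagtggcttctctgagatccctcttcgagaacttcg
Dkk1, chr19:30549447-30549746, minus strand: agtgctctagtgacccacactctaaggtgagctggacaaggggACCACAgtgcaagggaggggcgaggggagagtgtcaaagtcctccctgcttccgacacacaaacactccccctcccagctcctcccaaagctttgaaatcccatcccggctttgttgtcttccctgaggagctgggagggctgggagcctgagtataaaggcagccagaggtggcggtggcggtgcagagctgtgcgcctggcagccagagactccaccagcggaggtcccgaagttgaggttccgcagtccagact
The letters occurred in the Dkk1 promoter and in the downstream Dmp1 promoter, each with 1 match, and in neither of the others. Of all 32851 promoters of this length, 16.76% held them. At the level of genes with a promoter in the table, the share was 15.12% of the 11622 tested genes, 13.06% of 268 genes lower in SM than in both fronts and 12.24% of 98 genes higher in SM than in both. Such matches describe letters and not bound sites.

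The osteoblast transcription factors Runx2, Sp7 and Dlx3 were lower in SM than in both fronts. Runx2, which commits cells to the osteoblast lineage, had 321 to 524 CPM in SM, 568 to 749 CPM in FR and 807 to 915 CPM in PA, without overlap. Its fold changes were -0.76 ± 0.12 (edgeR adjusted p = 0.00116) and -1.17 ± 0.12 (adjusted p = 3.35e-06), and the call against FR was lost with second libraries in place (adjusted p = 0.0891). Sp7 (osterix), which acts after Runx2, had fold changes of -1.58 ± 0.15 and -2.32 ± 0.15. Dlx3, a homeobox factor of bone and teeth, was at 0.252 to 8.27 CPM in SM, 22.7 to 78.1 CPM in FR and 54.6 to 106 CPM in PA. Its fold changes were -3.96 ± 0.60 and -5.05 ± 0.62, whereas its relative Dlx5 was lower against PA alone, by -0.47 ± 0.13 (edgeR adjusted p = 0.0245), and had 0.11 ± 0.13 against FR (adjusted p = 0.841). The members of the osteoblast list that were higher in SM were Tnn (tenascin-W), by 0.48 ± 0.10 against FR alone, and Mmp13, a collagenase, by 3.74 ± 0.72 against PA alone. The call of Tnn was lost without the embryo as a block (edgeR adjusted p = 0.093) and with second libraries in place (adjusted p = 0.431), and that of Dlx5 without embryo 2 (adjusted p = 0.0565), with total counts in place of TMM (adjusted p = 0.297) and with second libraries (adjusted p = 0.205). Cthrc1 and Fam20c were called in neither comparison.

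Of 14 tested mineralization genes, 7 were lower in SM and 1 higher against FR, and 7 lower and 2 higher against PA (7 and 5 with total counts in place of TMM). Alpl, Phex, Dmp1, Spp1, Ibsp, Mepe, Bglap, Bglap2, Fam20c and Smpd3 are also in the osteoblast list, so these counts are not separate results. Alpl, the alkaline phosphatase that releases phosphate at the mineral front, had 125 to 219 CPM in SM, 337 to 734 CPM in FR and 488 to 927 CPM in PA. SM stood apart from both fronts, and FR and PA overlapped through FR of embryo 2, the highest of its region. The fold changes were -1.39 ± 0.14 (edgeR adjusted p = 1.72e-05) and -1.96 ± 0.14 (adjusted p = 8.5e-08). Phex, a membrane peptidase mutated in hypophosphatemic rickets, had -3.40 ± 0.40 and -5.30 ± 0.42, and the sphingomyelinase Smpd3 -3.52 ± 0.45 and -4.65 ± 0.47. Enpp1, which makes pyrophosphate and so holds back mineral, went the other way, with 473 to 743 CPM in SM against 231 to 399 CPM in FR and 169 to 379 CPM in PA. It did not overlap with either front and was higher by 0.95 ± 0.14 (edgeR adjusted p = 0.000469) and 1.07 ± 0.14 (adjusted p = 2.77e-05). Mgp, the mineral-binding matrix Gla protein, was higher against PA alone (0.56 ± 0.16), a call lost without embryo 2 (edgeR adjusted p = 0.0812) and with second libraries in place (adjusted p = 0.305).

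Among the other named genes lower in both comparisons, Slc36a2, an amino acid transporter, had 0 to 1.62 CPM in SM, 9.17 to 29.8 CPM in FR and 9.45 to 34.7 CPM in PA, with fold changes of -5.08 ± 0.72 and -5.24 ± 0.72 and no difference called between the fronts (-0.16 ± 0.56, edgeR adjusted p = 0.943). Slc13a5, the citrate transporter, had 1.01 to 24.4 CPM in SM, 92.6 to 220 CPM in FR and 223 to 475 CPM in PA. The 3 regions did not overlap for Slc13a5, nor for Rhbdl2, a rhomboid protease. Lipi (a phospholipase), Car3 (carbonic anhydrase 3) and Adamts18 (a secreted metalloproteinase) had fold changes of -4.70, -3.85 and -3.83 against FR and of -6.04, -4.69 and -4.68 against PA. Groups of SM and each front did not overlap for 11 of the 12 named genes that were lower in both, beside 2.63% of all genes against FR and 6.12% against PA, although these libraries had served to choose the 12.

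The exception was Socs1, a feedback inhibitor of cytokine signalling. It had 0.554 to 2.98 CPM in SM. In FR it had 60.7, 213 and 113 CPM in embryos 1, 2 and 4 but 0.948 and 1.24 CPM in embryos 3 and 5, and in PA 124, 307, 132 and 195 CPM in embryos 1 to 4 but 2.41 CPM in embryo 5. The high libraries were thus 7 of the 10 of the fronts, and the other 3 lay within the range of SM. Second libraries had 1.81 CPM for FR of embryo 1 and 3.16, 2.78 and 5.95 CPM for PA of embryos 1, 3 and 4. With second libraries in place of the first, the adjusted p of edgeR was 0.394 against FR and 0.316 against PA, where it had been 0.00309 and 8.55e-05. What set the difference between the library sets was not tested.

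Collagen chains were called in both directions. Of 29 collagen chains, 8 were lower in SM than in FR and 2 higher, and 11 lower than in PA and 10 higher. Against FR the higher chains became 4 without embryo 2, 4 with total counts in place of TMM and 0 with second libraries in place. Col1a1, the main chain of bone collagen, had 7326 to 10192 CPM in SM, 12066 to 28150 CPM in FR and 22176 to 41408 CPM in PA. SM was separate from both fronts, and FR of embryo 2 alone reached into the range of PA, with fold changes of -0.81 ± 0.11 and -1.55 ± 0.11. The call of Col1a1 against FR was lost by DESeq2 (adjusted p = 0.0563) and with second libraries in place (edgeR adjusted p = 0.129). Col11a2, a minor fibrillar chain, had fold changes of -3.74 ± 0.46 and -4.96 ± 0.48, the fibril-associated Col22a1 of -3.72 ± 0.55 and -4.85 ± 0.57, and the fibrillar Col24a1 of -1.51 ± 0.20 and -2.79 ± 0.21. The chains higher in SM than in both fronts were Col15a1 (0.60 ± 0.13 and 1.71 ± 0.14) and Col27a1 (0.77 ± 0.13 and 1.11 ± 0.13). Both calls against FR were lost with second libraries in place (edgeR adjusted p = 0.174 and 0.0828), and that of Col15a1 also without the block (adjusted p = 0.0715). Col3a1 of soft connective tissue and Col4a1 of basement membrane were higher against PA alone, by 0.79 ± 0.11 and 1.70 ± 0.14. Col3a1 and Col4a1 had 0.36 ± 0.11 (edgeR adjusted p = 0.0932) and 0.39 ± 0.13 (adjusted p = 0.16) against FR.

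Of 26 genes of collagen processing, 9 were lower in SM and 1 higher against FR, and 18 lower and 3 higher against PA. P4ha1, a subunit of the prolyl hydroxylase that stabilizes the collagen helix, had -1.07 ± 0.12 and -2.19 ± 0.12, and Loxl4, a crosslinking oxidase, -2.37 ± 0.27 and -3.96 ± 0.29. The related subunit gene P4ha3 was higher in SM, by 0.65 ± 0.11 (edgeR adjusted p = 0.00199) and 1.03 ± 0.11 (adjusted p = 4.65e-06). The call of P4ha3 against FR was lost without the block (adjusted p = 0.0656) and with second libraries in place (adjusted p = 0.671). Against FR, 5 of the 26 were lower without embryo 2, 4 without the block and 3 with second libraries in place, and against PA 17, 16 and 14. Among 10 small leucine-rich proteoglycans, which bind collagen fibrils and growth factors, 3 were higher and 4 lower against FR, and 4 higher and 4 lower against PA. Ogn, Aspn and Ecm2 were higher in SM than in both fronts, and Dcn, Lum, Omd and Prelp lower. Aspn (asporin) had 682 to 1270 CPM in SM, 352 to 466 CPM in FR and 221 to 488 CPM in PA, without overlap between SM and either front. Prelp had fold changes of -1.74 ± 0.27 and -3.19 ± 0.28. The calls against FR of Ogn, Prelp, Ecm2 and Lum were lost with second libraries in place (edgeR adjusted p = 0.0611, 0.0859, 0.187 and 0.476), as was that of Lum against PA (adjusted p = 0.147). The call of Lum against FR was also lost without the block (adjusted p = 0.159) and on leaving out any 1 of the 5 embryos.

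Several elastic fibre genes were higher in SM. Of 15 tested, 3 were higher and 0 lower against FR, where the unadjusted p was under 0.05 for 7 higher and 1 lower and DESeq2 called 3 higher and 1 lower. Against PA, 8 were higher and 1 lower. Fbn2, the fibrillin of developing tissue, had 295 to 424 CPM in SM, 128 to 214 CPM in FR and 42.9 to 170 CPM in PA. SM did not overlap with either front, and the fold changes were 1.00 ± 0.20 (edgeR adjusted p = 0.00698) and 1.56 ± 0.20 (adjusted p = 3.3e-05). Fbn1 and the microfibril gene Mfap4 were the other members higher than in both fronts. Their calls against FR were lost with second libraries in place (edgeR adjusted p = 0.183 and 0.114), that of Fbn1 also without the block (adjusted p = 0.109), and that of Fbn2 without embryo 3 (adjusted p = 0.0529). Eln (elastin), Fbln5 and Ltbp2 were higher against PA, by 1.30 ± 0.17, 2.32 ± 0.28 and 2.75 ± 0.31, and were also higher in FR than in PA.

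The 12 named genes higher in SM than in both fronts included the secreted regulators Rspo3 and Rspo2 of WNT and Grem1 of BMP signalling. Rspo3, an R-spondin that strengthens WNT signals, had 55.3, 23.6, 30.2, 41.6 and 21.0 CPM in SM of embryos 1 to 5. It had 5.18, 8.08, 10.2, 15.6 and 3.83 CPM in FR and 2.83, 1.69, 4.48, 1.30 and 2.60 CPM in PA. SM lay above every FR and PA library, and the fronts overlapped. The fold changes were 2.02 ± 0.36 against FR (edgeR adjusted p = 0.00326) and 3.68 ± 0.39 against PA (adjusted p = 4.21e-06). Rspo2, of the same family, had 6.46 to 24.2 CPM in SM, 0.0808 to 9.62 CPM in FR and 0 to 1.498 CPM in PA. FR of embryo 4 reached into the range of SM. Rspo2 was higher in SM by 3.47 ± 0.65 (adjusted p = 0.00425) and 4.30 ± 0.66 (adjusted p = 0.000172), and without the embryo as a block its difference from FR was not called (adjusted p = 0.164).

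Grem1, an extracellular BMP antagonist that marks skeletal progenitors, had 20.6, 5.46, 13.3, 16.8 and 9.02 CPM in SM. It had 0.618 to 1.67 CPM in 4 FR libraries and 7.76 CPM in FR of embryo 4, and 1.52 to 4.80 CPM in PA. SM was separate from PA and overlapped with FR through embryo 4. The fold changes were 2.61 ± 0.45 (edgeR adjusted p = 0.00214) and 2.07 ± 0.42 (adjusted p = 0.00237). Ostn (osteocrin), a secreted peptide that protects natriuretic peptides from their clearance receptor, had 9.98 to 21.7 CPM in SM, 0.371 to 5.33 CPM in FR and 1.46 to 9.03 CPM in PA. SM did not overlap with either front, and Ostn was higher by 3.87 ± 0.43 (adjusted p = 4.78e-05) and 2.20 ± 0.40 (adjusted p = 0.000796), with FR below PA. The call of Ostn against PA was lost without the embryo as a block (edgeR adjusted p = 0.0614) and with second libraries in place (adjusted p = 0.0611).

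Tac1, the precursor of substance P, had 10.9 to 23.0 CPM in SM, 0.767 to 8.24 CPM in FR and 1.65 to 4.02 CPM in PA, and was higher by 2.45 ± 0.37 and 2.44 ± 0.37. Egfl6, a secreted EGF-domain protein, had 48.8 to 128 CPM in SM, 6.22 to 42.8 CPM in FR and 9.09 to 44.7 CPM in PA, and was higher by 2.43 ± 0.30 and 2.02 ± 0.30. SM was separate from both fronts at each of these genes. Cpm (carboxypeptidase M), Ttyh1, Zdhhc23, Csmd3, Sv2b and Slc5a7 completed the 12 named genes, with fold changes of 1.76 (Ttyh1) to 3.96 (Slc5a7) against FR and of 2.03 (Ttyh1) to 3.55 (Slc5a7) against PA. Slc5a7, the choline transporter, varied widely in SM, from 1.97 to 16.4 CPM with the highest value in embryo 4 (mean 5.90 ± 5.95 CPM, SD, n = 5). Its call against FR was lost without embryo 2 (edgeR adjusted p = 0.0549), and without the embryo as a block it was called against neither front (adjusted p = 0.167 against FR and 0.113 against PA). With second libraries in place, the calls against FR of Slc5a7, Sv2b, Zdhhc23, Cpm and Ttyh1 were lost (adjusted p = 0.0512 for Zdhhc23 to 0.296 for Slc5a7), and that of Sv2b against PA (adjusted p = 0.202). SM was separate from FR for 8 of the 12, from PA for 10 and from both for 7, beside 1.3% and 5.4% of all genes, and these 12 were likewise chosen on the same libraries.

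**Figure D3:**
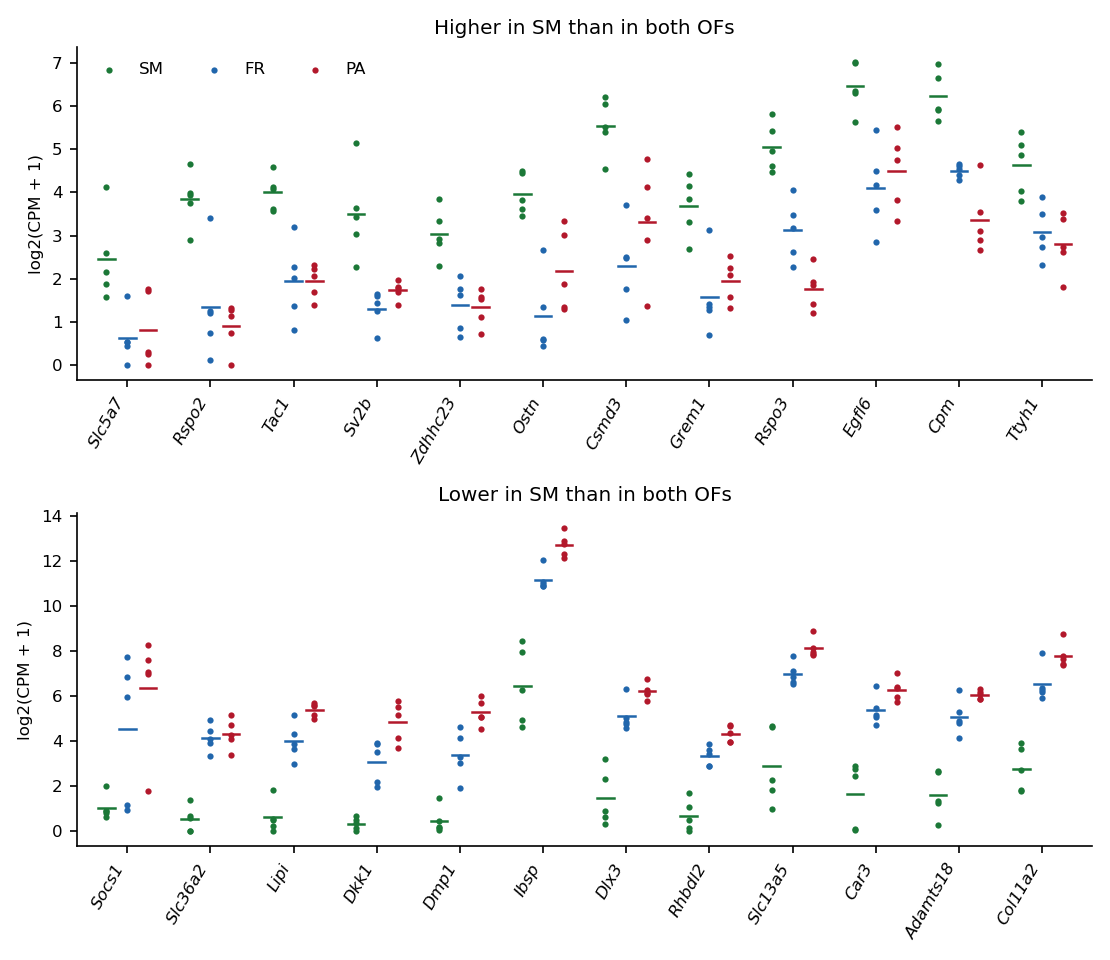
Levels of the 12 named genes higher and the 12 lower in SM than in both fronts, as log2(CPM + 1) on the vertical axis. Points are libraries of SM (green), FR (blue) and PA (red), and bars are means of 5. The FR library of embryo 4 is the highest of its region at Rspo2, Ostn and Grem1, and the FR libraries of Socs1 fall into a high and a low set.

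Among 27 WNT pathway genes, 4 were higher and 7 lower in SM against FR, and 4 higher and 11 lower against PA (5 and 8 with total counts in place of TMM). Ligands called in both comparisons were lower in SM, Wnt7b by -2.02 ± 0.43 and -2.42 ± 0.43 and Wnt10a by -3.66 ± 0.88 and -4.27 ± 0.91. Without embryo 2 neither was called against FR (edgeR adjusted p = 0.0727 and 0.0623), and with second libraries in place Wnt7b was called against neither front (adjusted p = 0.839 and 0.317). The inhibitors did not move as a group. Dkk1 had 0.091, 0, 0.277, 0.421 and 0.616 CPM in SM, 10.5, 14.0, 3.52, 13.8 and 2.88 CPM in FR and 54.0, 44.5, 16.8, 34.8 and 11.8 CPM in PA. SM lay below both fronts in every embryo, and FR and PA overlapped. Dkk1 was lower by -4.66 ± 0.62 (edgeR adjusted p = 0.000256) and -6.57 ± 0.64 (adjusted p = 1.95e-06). In second libraries of SM it had 7.35, 2.37 and 12.7 CPM in embryos 1, 3 and 4, and with second libraries in place the call against FR was lost (adjusted p = 0.455).

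The WNT inhibitors Frzb (-4.73 ± 0.69 and -5.91 ± 0.70) and Wif1 (-1.17 ± 0.18 and -2.24 ± 0.18) were also lower in SM. Sfrp2 and Dkk3 were higher, Sfrp2 with 75.7 to 183 CPM in SM, 24.9 to 51.2 CPM in FR and 32.5 to 90.1 CPM in PA. Sfrp2 was separate from FR and overlapped with PA, with 1.57 ± 0.28 (edgeR adjusted p = 0.00309) and 0.89 ± 0.28 (adjusted p = 0.04). Tcf7, a transcriptional effector of the pathway, was lower by -2.65 ± 0.26 and -3.27 ± 0.26, whereas the feedback target Axin2 was called in neither comparison. Dkk2 was lower against FR alone, by -1.11 ± 0.23 (adjusted p = 0.0113), and FR was above PA by 1.05 ± 0.23 (adjusted p = 0.0125). The calls of Dkk2 (edgeR adjusted p = 0.514) and Dkk3 (adjusted p = 0.469) against FR and of Sfrp2 against PA (adjusted p = 0.119) were lost with second libraries in place. That of Dkk2 was also lost without the block (adjusted p = 0.0809), and that of Sfrp2 against PA without embryo 2 (adjusted p = 0.139).

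Of 28 BMP pathway genes, 2 were higher and 2 lower against FR (3 and 5 by DESeq2), and 7 higher and 6 lower against PA. The antagonists Grem1 and Chrdl1 were higher in SM than in both fronts, Chrdl1 by 1.32 ± 0.26 and 1.25 ± 0.27, and the ligand Bmp3 and the pseudoreceptor Bambi were lower in both. Bmp3 had 12.7 to 39.3 CPM in SM, 59.1 to 154 CPM in FR and 136 to 304 CPM in PA, without overlap between SM and either front. Bmp2 and Bmp4 were lower against PA alone, by -1.94 ± 0.27 and -1.95 ± 0.43. The calls of Chrdl1 and Bambi against FR (edgeR adjusted p = 0.0682 and 0.12) and of Bmp4 against PA (adjusted p = 0.142) were lost with second libraries in place, and that of Bmp3 against FR without embryo 5 (adjusted p = 0.0675). Gdf6, a ligand whose loss fuses the coronal suture in mice, had 2.64 to 8.69 CPM in SM, 0 to 2.63 CPM in FR and 0 CPM in 4 PA libraries, and was called higher against PA (edgeR adjusted p = 0.00253) and not against FR (adjusted p = 0.0927). The receptors Bmpr1a and Bmpr2 differed by at most 0.10 in either comparison and were not called.

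Of 19 hedgehog pathway genes, 2 were higher and 4 lower against FR, and 7 higher and 5 lower against PA. The second libraries in place gave 1 higher and 1 lower against FR, and 5 higher and 4 lower against PA. Hedgehog ligands bind Ptch1, which releases Smo and turns on the Gli factors, and Ptch1, Gli1 and Hhip are targets of the pathway as well as its parts. Ihh, the ligand of bone, was at 0.084 to 1.27 CPM in SM, 2.84 to 11.7 CPM in FR and 9.71 to 23.2 CPM in PA, and Shh had no count in any of the 15 libraries. Ihh differed by -2.97 ± 0.57 (edgeR adjusted p = 0.00529) and -4.33 ± 0.58 (adjusted p = 4.6e-05). Ptch1 had 181 to 292 CPM in SM, 391 to 528 CPM in FR and 687 to 858 CPM in PA, 3 separate ranges, with -0.87 ± 0.12 and -1.64 ± 0.12. Gas1, a co-receptor, and Scube2, which helps release the ligand, were higher in SM than in both fronts, Gas1 by 1.09 ± 0.19 and 1.87 ± 0.19. The calls against FR lost with second libraries included Ihh (edgeR adjusted p = 0.056) and Scube2 (adjusted p = 0.147).

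Hhip, the decoy receptor that binds hedgehog ligands, had 313, 624, 410, 351 and 485 CPM in SM, 253, 327, 372, 280 and 362 CPM in FR and 177, 199, 260, 222 and 252 CPM in PA. SM was above FR and PA in all 5 embryos, its range overlapped with that of FR, and it stood above all of PA. The difference from FR was 0.44 ± 0.13 and was not called (edgeR adjusted p = 0.0882), and that from PA was 0.95 ± 0.13 (adjusted p = 5.3e-05). FR was above PA by 0.51 ± 0.13 (adjusted p = 0.0251). Hhip thus took a direction opposite to Ptch1 and Gli1 against PA, Gli1 being lower by -0.92 ± 0.17 (adjusted p = 0.000831, and 0.0624 with second libraries in place).

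Of 19 genes of the FGF list, edgeR called Fgf2 higher and Fgfr1 lower in SM in both comparisons, where DESeq2 called 3 higher and 1 lower against FR. Without the block neither gene was called against FR (adjusted p = 0.0525 for each), nor with second libraries in place (adjusted p = 0.882 and 0.222), and Fgfr1 was not called against FR without embryo 2 (adjusted p = 0.153). Against PA, 5 were higher and 3 lower, but 8 higher and 1 lower with total counts in place of TMM, and Fgf2 was not called with second libraries (adjusted p = 0.0606). The ligands Fgf9 and Fgf10 were higher against PA, by 3.69 ± 0.67 and 3.51 ± 0.47. Fgf9 had 6.42 to 15.5 CPM in SM, 1.41 to 8.001 CPM in FR and 0 to 2.60 CPM in PA, and was not called against FR (1.97 ± 0.62, edgeR adjusted p = 0.122). Of 13 TGF-beta genes, Tgfbi, a matrix protein induced by the pathway, was higher in both comparisons and was the edgeR call against FR, where DESeq2 called 4 higher and 1 lower and edgeR on total counts 4 higher. Against PA, 6 were higher and 2 lower, or 8 higher and 1 lower with total counts. Without the block Tgfbi was called in neither (edgeR adjusted p = 0.152 and 0.248). Tgfbr2, the type II receptor, was higher against PA by 1.18 ± 0.13, and Tgfb1 lower by -1.67 ± 0.25. Between the fronts, 5 of the 13 TGF-beta genes were higher in FR than in PA and 0 lower.

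Several genes of insulin-like growth factor signalling were higher in SM than in PA. Igf1 had 673 to 763 CPM in SM, 260 to 466 CPM in FR and 18.8 to 122 CPM in PA, 3 separate ranges in which the lowest values of both fronts came from embryo 2. It was higher than in PA by 3.34 ± 0.29 (edgeR adjusted p = 5.07e-07), and its difference from FR was 0.96 ± 0.26 (adjusted p = 0.0611). Of 10 genes of the list, 5 were higher and 0 lower against PA, where 1 was lower at an unadjusted p under 0.05 and by DESeq2. Against FR edgeR called 0, with 3 higher and 1 lower at an unadjusted p under 0.05 and 0 by DESeq2, and without embryo 2 it called 2 higher. Of 11 NOTCH genes, 6 were higher against PA and 0 lower by edgeR, at an unadjusted p under 0.05 or by DESeq2. Against FR edgeR called 0 of the NOTCH genes, with 2 higher at an unadjusted p under 0.05 and 1 by DESeq2. Between the fronts, edgeR called 5 NOTCH genes and 3 IGF genes higher in FR than in PA, and 0 lower in either list. The NOTCH genes higher in SM than in PA included Notch3, Heyl and Dll4, which are known in vessels, and Jag1. Of the 6 NOTCH genes, 4 were called without the block and 3 with second libraries in place, with Dll4 lost in both (edgeR adjusted p = 0.089 and 0.0709), and the IGF genes higher against PA went from 5 to 3 with second libraries.

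Of 24 tested transcription factors of skull patterning, 5 were higher and 1 lower in SM against FR, and 12 higher and 2 lower against PA. These counts became 1 higher and 1 lower against FR with second libraries in place, and 9 higher and 1 lower against PA. Erg, an ETS factor of the suture mesenchyme and of vessels, had 335, 253, 400, 458 and 346 CPM in SM, 216, 148, 265, 246 and 195 CPM in FR and 95.3, 57.2, 99.7, 94.0 and 120 CPM in PA. SM overlapped with FR by embryo 2 alone, and FR and PA were separate. Erg was higher by 0.75 ± 0.12 (edgeR adjusted p = 0.0012) and 1.95 ± 0.12 (adjusted p = 2.4e-08). Alx1, a homeobox factor of craniofacial mesenchyme, had 76.2 to 117 CPM in SM, 41.5 to 61.3 CPM in FR and 18.2 to 27.8 CPM in PA, 3 separate ranges, with 1.04 ± 0.17 and 2.13 ± 0.17. Eya1 and Six2, partners in a transcriptional complex, were higher by 1.12 ± 0.23 and 0.82 ± 0.16 against FR and by 2.20 ± 0.24 and 1.69 ± 0.17 against PA. The calls of Erg, Eya1 and Six2 against FR were lost with second libraries in place (edgeR adjusted p = 0.573, 0.0728 and 0.058), that of Six2 also without the block (adjusted p = 0.0571), and that of Erg also with all first libraries of the series in 1 fit (adjusted p = 0.102). Twist1, Tcf12 and En1, known for their part in the coronal boundary, were called in neither comparison, with differences of -0.04 to 0.37. Of 29 genes whose change causes craniosynostosis in mice, 0 were higher and 5 lower against FR by edgeR, with 7 higher and 7 lower at an unadjusted p under 0.05 and 3 higher and 5 lower by DESeq2. Against PA, 7 were higher and 6 lower, but 13 higher and 5 lower with total counts in place of TMM.

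Few genes were called against FR and not against PA. There were 11 that were higher in SM (0.0576% of those tested) and 19 lower (0.0996%), and a direct test between the fronts called 2 and 10 of them. Without embryo 5 there were 12 such genes in place of 30. Lmx1a, a LIM homeobox factor, had 8.71 to 23.1 CPM in SM, 1.85 to 4.36 CPM in FR and 7.08 to 15.2 CPM in PA. FR lay apart from SM and from PA, which overlapped. Lmx1a was higher in SM than in FR by 2.31 ± 0.31 (edgeR adjusted p = 0.000242), differed from PA by 0.22 ± 0.29 (adjusted p = 0.684) and was lower in FR than in PA by -2.09 ± 0.31 (adjusted p = 0.000516). Hs3st3b1, a heparan sulfate sulfotransferase, was likewise higher in SM than in FR alone, with 1.06 ± 0.22 against FR and -0.04 ± 0.22 against PA.

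Genes lower in SM than in FR alone, and higher in FR than in PA, included Prmt8, an arginine methyltransferase best known from neurons, and Scube1, a secreted and membrane-bound protein. Prmt8 had 1.78 to 4.77 CPM in SM, 12.4 to 20.8 CPM in FR and 0.593 to 3.56 CPM in PA. Scube1 had 5.23 to 10.9 CPM in SM, 13.4 to 24.5 CPM in FR and 4.24 to 5.84 CPM in PA. FR was separate from SM and PA at both. The differences from FR were -2.50 ± 0.40 (Prmt8, edgeR adjusted p = 0.0012) and -1.50 ± 0.28 (Scube1, adjusted p = 0.00487), and FR was above PA by 2.76 ± 0.41 and 1.94 ± 0.29. Reln, a secreted matrix protein, had 0.455 to 1.23 CPM in SM and 1.49 to 8.77 CPM in FR, and Fblim1, an adaptor of filamin, 4.00 to 8.93 CPM in SM and 12.2 to 25.3 CPM in FR. SM and FR were separate at Reln and Fblim1 too. With second libraries in place, the calls against FR of Lmx1a (edgeR adjusted p = 0.084), Fblim1 (adjusted p = 0.104), Scube1 (adjusted p = 0.685) and Reln (adjusted p = 0.718) were lost, and that of Reln also without the block (adjusted p = 0.0713).

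Many more genes were called against PA alone, 1299 higher in SM (6.81%) and 1226 lower (6.42%). Of the 1299, 510 were also higher in FR than in PA, and of the 1226, 182 were lower in FR than in PA, beside 3.23% and 1.8% of all genes, although the same PA libraries had served to choose them. For the remaining genes of each set a difference between the fronts was not called, and the 692 genes of both sets with a difference became 337 to 405 without embryo 1, 3, 4 or 5. The named genes of the higher set were those that also differed most between the fronts, and some were of vessels. Gja5, a connexin of arteries, had 0.546 to 15.6 CPM in SM, 0.767 to 48.3 CPM in FR and 0 to 0.773 CPM in PA, with the lowest SM value in embryo 2, within the range of PA. Vwf, of endothelium, had 0.294 to 16.55 CPM in SM, 0.727 to 31.1 CPM in FR and 0 to 0.411 CPM in PA, and again SM of embryo 2 lay among the PA libraries. Gria1, a glutamate receptor subunit, had 9.39 to 19.4 CPM in SM, 5.86 to 17.1 CPM in FR and 0 to 0.527 CPM in PA, so that both stood apart from PA.

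The genes lower in SM than in PA alone and lower in FR than in PA were at their highest in PA. Lrrn4cl, a leucine-rich repeat membrane protein, had 8.71 to 27.5 CPM in SM, 8.72 to 37.9 CPM in FR and 56.3 to 113 CPM in PA. SM and FR overlapped, and PA was separate from both. It was lower by -2.89 ± 0.30 against PA (edgeR adjusted p = 3.35e-06) and by -0.70 ± 0.29 against FR (adjusted p = 0.311). Sim1, a transcription factor, had 2.22 to 6.64 CPM in SM, 0.388 to 2.95 CPM in FR and 18.1 to 32.6 CPM in PA. Tnmd of tendon was lower than in PA by -1.59 ± 0.42 and Dpysl5 by -1.86 ± 0.61, and SM of embryo 2 (Tnmd) and of embryo 4 (Dpysl5) lay within the range of PA. The call of Tnmd was lost without the embryo as a block (edgeR adjusted p = 0.0686) and with second libraries in place of the first (adjusted p = 0.119). That of Dpysl5 was lost without embryo 2 (adjusted p = 0.0906), without the block (adjusted p = 0.125) and with second libraries (adjusted p = 0.554).

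**Figure D4:**
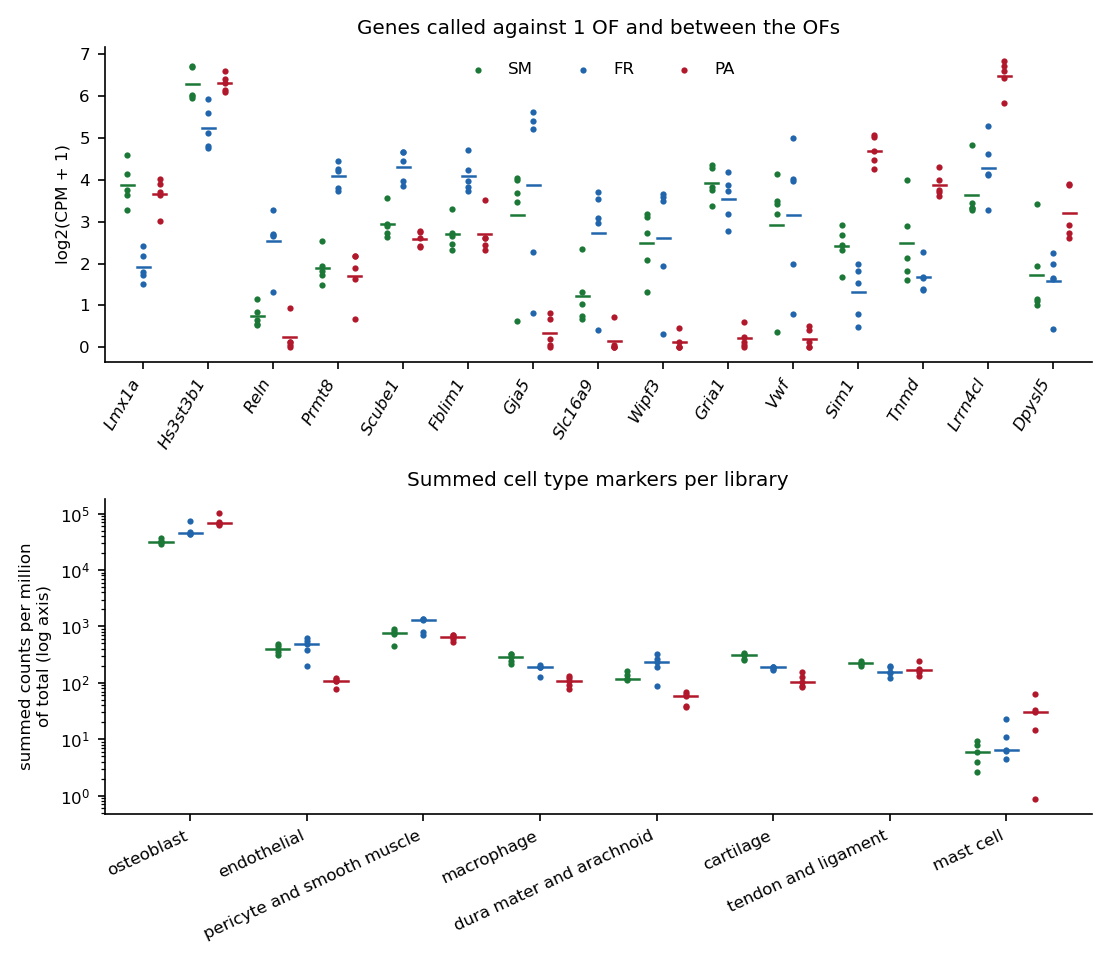
Top, log2(CPM + 1) of named genes called against 1 front and between the fronts, by library and region, with means of 5 as bars. Bottom, summed CPM of the total counts for lists of cell type markers on a log axis, with medians as bars. Endothelial sums are lowest in PA, and the FR library of embryo 2 is the lowest FR library for endothelial and dura mater markers.

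Markers of endothelium and macrophages were called higher in SM than in PA. Of 12 endothelial markers, edgeR called 0 between SM and FR, with 0 also at an unadjusted p under 0.05 and by DESeq2, and 11 higher in SM than in PA. All 11 were also higher in FR than in PA, and the count against PA was again 11 without embryo 2 but 7 with second libraries in place. Pecam1, the junction protein of endothelium, had 50.7 to 75.2 CPM in SM, 38.4 to 88.0 CPM in FR and 12.6 to 18.3 CPM in PA, and was higher in SM than in PA by 2.05 ± 0.17 (adjusted p = 2.33e-07). The summed endothelial markers, as CPM of the total counts without TMM, were 314 to 494 in SM, 202 (embryo 2) to 613 in FR and 77.9 to 122 in PA. Of 12 macrophage markers 9 were higher against PA and 0 lower by edgeR, DESeq2 or an unadjusted p under 0.05, and 0 were called against FR, with 4 higher at an unadjusted p under 0.05 and 2 by DESeq2. The 9 became 7 without embryo 2 and 5 with second libraries in place. The macrophage sums were 218 to 329 in SM, 126 to 205 in FR and 77.8 to 134 in PA.

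Of 12 markers of dura mater and arachnoid, the inner membranes of the skull, 4 were higher in SM than in PA, among them Cxcl12 and Aldh1a2, and 6 were higher in FR than in PA. Between SM and FR edgeR called 0, with 6 lower in SM at an unadjusted p under 0.05, 0 by DESeq2, 2 lower by limma-voom, and 2 lower by edgeR without embryo 2. Their sums were 112 to 161 in SM, 87.3 (embryo 2) to 320 in FR and 37.7 to 68.0 in PA. Ptgds, a defining marker of arachnoid, averaged 0.84 CPM in SM, 8.91 CPM in FR and 0.42 CPM in PA. Of 11 markers of pericytes and smooth muscle, 5 were higher and 2 lower against PA. Against FR 1 was lower by edgeR, with 6 lower at an unadjusted p under 0.05, 3 by DESeq2 and 4 by limma-voom, and the call was lost with second libraries in place. Myh11 had 8.35 to 26.5 CPM in SM, 4.56 to 77.6 CPM in FR and 0.868 to 2.84 CPM in PA. These lists moved with the 1299 genes higher against PA alone, and with the NOTCH genes and Col4a1 given above, and their part in those differences was not tested.

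Of 8 cartilage genes, 1 was higher in SM than in both fronts (Acan, 0.86 ± 0.16 and 1.86 ± 0.17) and 1 was lower against PA (Sox9, a transcription factor of cartilage and its progenitors, -1.91 ± 0.42), whereas Col2a1, which defines cartilage, averaged 0.987 CPM in SM, 2.18 CPM in FR and 1.18 CPM in PA, and Matn1 was too low to test. Of 9 tendon genes, 1 was higher against FR, and 2 were higher and 1 lower (Tnmd, given above) against PA. Chodl was higher in both comparisons (1.17 ± 0.28 and 3.30 ± 0.31, with the call against FR lost with second libraries in place, edgeR adjusted p = 0.459) and Scx against PA alone. Of 12 hypodermis and fibroblast genes, 4 were higher and 5 lower against PA, and their sums had medians of 1175 in SM, 834 in FR and 508 in PA. The members higher in SM than in PA were Cd34 (2.26 ± 0.20), Dpt (2.16 ± 0.20), Sema3c (0.98 ± 0.24) and Fbn1, and those lower were Pi16 (-3.40 ± 1.04), Mfap5 (-2.89 ± 0.66), Sfrp4 (-1.23 ± 0.40), Cd248 (-0.58 ± 0.17) and Clec3b. The calls of Sfrp4, Cd248 and Clec3b were lost with second libraries in place (edgeR adjusted p = 0.122, 0.238 and 0.203), those of Sfrp4 and Cd248 with total counts in place of TMM (adjusted p = 0.0904 and 0.175), and that of Sfrp4 without embryo 2 (adjusted p = 0.111). Clec3b, which defines the hypodermis list, had no count in SM, and 0 to 3.29 CPM in PA. Mast cell markers summed to 2.66 to 9.48 in SM and 0.866 to 62.6 in PA, with 1 of 5 tested members called (Cma1, lower in SM than in PA). Lower members against PA became 2 without embryo 2, 2 without the block and 3 with second libraries in place. Neutrophil markers were too low to test, Myog, Krt14, Tyr and Tyrp1 had no count in any library, and of osteoclast genes 1 was lower in SM than in each front (Itgb3) and 1 higher against PA (Atp6v0d2). With second libraries in place Itgb3 was not called against FR (edgeR adjusted p = 0.357) nor Atp6v0d2 against PA (adjusted p = 0.141, and 0.163 without the block), and Cma1 was not called by DESeq2 (adjusted p = 0.057), which called 1 other mast cell gene lower. Among 30 cell cycle genes, edgeR called 0 against FR, with 3 lower at an unadjusted p under 0.05 and 0 by DESeq2. Against PA 6 were lower and 0 higher, with 10 lower and 1 higher at an unadjusted p under 0.05 and 8 lower by DESeq2, but with total counts in place of TMM 3 were higher and 0 lower. The 6 lower became 3 without embryo 2 and 1 with second libraries in place.

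**Figure D5:**
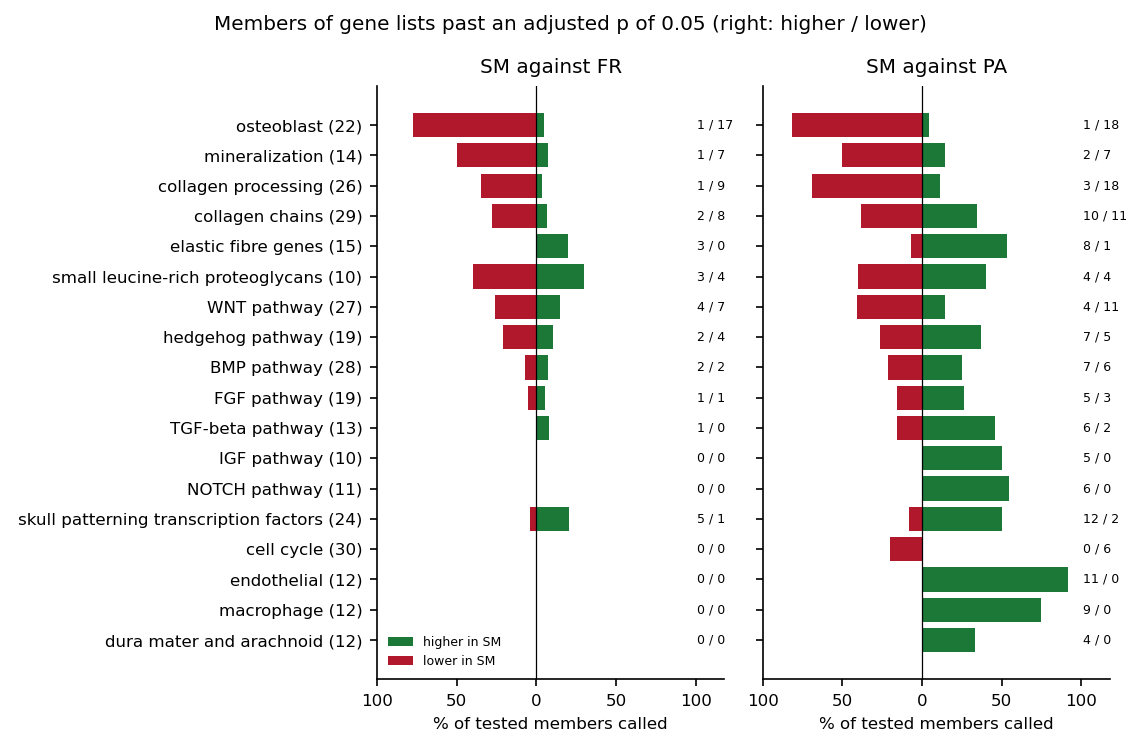
Share of tested members of each list called higher (green, to the right) or lower (red, to the left) in SM against FR and against PA, in percent, with the number tested beside the name and the counts higher and lower at the right. The osteoblast list is 1 higher and 17 lower against FR, and the endothelial list 11 higher against PA and 0 against FR.

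The study gave leading markers of cell populations from single cells of the same suture and age, and some of these were read in the captured regions. Its ectocranial mesenchyme and its Ibsp-expressing and Spp1-expressing osteoblast populations were not read here. Of 10 genes of the population of mesenchyme between the bones, which expresses Hhip, 1 was higher in SM than in FR by edgeR (Erg) and 8 were higher than in PA, where DESeq2 called 4 and limma-voom 3 against FR. Between the fronts, 6 of these 10 genes were higher in FR than in PA and 0 lower. Of 12 endothelial markers, 11 were likewise higher in SM than in PA, and Erg is known from vessels too. The part of vessels in the counts of this population was not tested. The call of Erg against FR was lost with second libraries in place, and 7 of the 10 were then higher against PA. Of 10 genes of the mesenchyme beside the fronts, which expresses Mest, 3 were higher than in FR (Mest, Chrdl1 and Aspn), and 6 higher and 1 lower than in PA. Mest, an imprinted gene of the embryonic mesenchyme, was higher by 0.61 ± 0.13 (edgeR adjusted p = 0.0157) and 0.97 ± 0.13 (adjusted p = 6.52e-05). Of the 10, 1 was called against FR with second libraries in place, and the call of Mest was lost (adjusted p = 0.373). Of 10 genes of the periosteal population, 2 were lower than in FR, and 6 lower and 1 higher than in PA. No call against FR was kept in this population with second libraries, and 5 were then lower against PA.

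The E16.5 coronal libraries, 5 for each of the same regions from C57BL/6J embryos, show whether SM differed from its fronts in the same way earlier. For this age and for the lambdoid suture, levels are CPM on TMM factors of all first libraries of the series together, so that the coronal levels at E18.5 differ somewhat from those above. SM at E18.5 was set against SM at E16.5 by the difference between SM and the mean of both fronts, and taken with its sign, 48 of 18558 genes gave a higher difference at E18.5 (0.259%) and 7 a lower one (0.0377%). Entpd3, an ectonucleotidase, had medians of 3.17 CPM in SM, 6.77 CPM in FR and 15.3 CPM in PA at E18.5, and of 0, 40.9 and 28.4 CPM at E16.5. The difference of differences was 5.95 ± 0.77 (edgeR adjusted p = 0.000213). Tnfrsf11b (osteoprotegerin), which restrains osteoclasts, was at 0.58 to 3.52 CPM in SM at E18.5 and at 0 to 0.0831 CPM at E16.5, while FR and PA had medians of 6.98 and 20.04 CPM at E18.5 and of 3.74 and 5.14 CPM at E16.5 (5.11 ± 0.97, adjusted p = 0.0147, and 0.0587 to 0.0878 without embryo 1, 3, 4 or 5 of E18.5). In all 55 genes were called (0.296%), 47 without embryo 2 of E18.5 and 12 to 17 without embryo 1, 3, 4 or 5. Hhip and Erg were not among them (adjusted p = 0.573 and 0.275). Libraries of different ages come from different embryos and so from separate captures, and age and capture cannot be told apart.

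Against the lambdoid suture of C57BL/6J embryos at E18.5, with 5 libraries each of SM and of an interparietal and a parietal front, 739 of 19475 genes had a higher signed difference at the coronal suture (3.79%) and 552 a lower one (2.83%), 1291 in all (6.63%). Hhip had a median of 413 CPM in coronal SM against 352 CPM in FR and 234 CPM in PA, and of 16.8 CPM in lambdoid SM against 115 and 122 CPM in its interparietal and parietal fronts. Coronal SM was thus above its fronts (0.68) and lambdoid SM below (-2.42), a difference of 3.11 ± 0.30 (edgeR adjusted p = 1.37e-07). Erg was higher in SM at both sutures, by 1.34 and 1.597, and the difference was not called (-0.26 ± 0.18, adjusted p = 0.493). Ano1, a chloride channel, had medians of 71.0 CPM in coronal SM and 2.00 CPM in lambdoid SM, while the fronts of both sutures had medians of 156 to 199.8 CPM (4.93 ± 0.30, adjusted p = 1.69e-11). The mast cell genes Cma1 and Cpa3 had 46.6 to 100.5 CPM and 102 to 175 CPM in lambdoid SM against at most 0.356 and 2.43 CPM in coronal SM. The libraries of the sutures were made from separate captures, so that suture and capture cannot be told apart.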

How the data were processed

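Counts were deposited by the authors as whole reads per gene and library: reads of amplified complementary DNA (PicoPure RNA, Ovation V2, Nextera XT) were trimmed with cutadapt, aligned to mm10 with STAR 2.5.3a and counted by featureCounts 1.6.4 without strand, so that overlapping and antisense genes cannot be told apart. Groups were taken from the sample labels. Members and gene lists were chosen with earlier results of these data known.

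From the counts of 55487 genes, those with at least 1 CPM in more than 10% of the 15 libraries were kept (19084 genes), and edgeR 4.0.16 (R 4.3.3) fitted region and embryo by its quasi-likelihood test on TMM-scaled libraries, two-sided, with Benjamini-Hochberg adjustment and a threshold of 0.05. The fit left 8 residual degrees of freedom. The SE of a fold change was its absolute value divided by the square root of the F statistic of its test. Named genes were the 12 per direction with the largest smaller fold change of both comparisons among those with 1 sign in every embryo. To these came up to 5 per class called against 1 front and between the fronts. The 5 per direction for each comparison with another age or suture and members of counted lists were also named. Apart from list members, all had a mean of at least 5 CPM in the highest coronal region at E18.5. The 12 lower in SM had it in each front. The embryo as a block rests on the labels, where 5 of 5 embryos have 1 litter id over the regions. Deviations of same-numbered SM and front libraries from their group means correlated with a median of 0.0503 (FR, over 0.1 in 2 of 5) and 0.0188 (PA, 1 of 5). For differently numbered pairs the medians were -0.0031 (FR, over 0.1 in 3 of 20) and -0.0092 (PA, 1 of 20). The highest value against FR was 0.1804 in these and 0.1664 in same-numbered pairs, so the pairing is not read from these correlations. Alternatives were DESeq2 1.42.0, limma-voom 3.58.1, other scalings and filters, no block, second libraries and leaving out each embryo. Mitochondrial and other genes outside the lists stayed in the library sizes. Some genes that met the rule are not reported here.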

Additional observations from a re-analysis of the deposited data

Results flagged for a closer look

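In each region of 5 libraries, the highest value of a named gene stood apart from the others (Dixon's ratio above 0.71) in 24 of 123 groups. These groups share libraries, and the values are untransformed CPM. Chance gives about 1 in 20 for normal values over both ends together, and so less at the high end alone. Skewed values give more at the high end, so no excess is read from the count. FR of embryo 4 was the high library for Rspo2 (9.62 CPM), Ostn (5.33 CPM) and Grem1 (7.76 CPM), at each of which SM was above FR in every embryo. SM of embryo 4 was the high library for Slc5a7 (16.4 CPM), Lipi (2.52 CPM), Scube1 (10.9 CPM), Slc16a9 (4.11 CPM), Lrrn4cl (27.5 CPM) and Dpysl5 (9.81 CPM). FR of embryo 2 was the high library for Ibsp (4127 CPM), Dlx3 (78.1 CPM), Col11a2 (242 CPM) and Tnmd (3.84 CPM), and PA of embryo 2 for Col11a2 (434 CPM) and Slc13a5 (475 CPM). SM of embryo 2 stood above the other SM libraries at Sv2b (34.6 CPM) and Socs1 (2.98 CPM). The remaining values were Slc5a7 in FR of embryo 1 (2.03 CPM), Cpm in PA of embryo 5 (23.7 CPM), Dmp1 in SM of embryo 3 (1.78 CPM), Reln in PA of embryo 3 (0.914 CPM), Fblim1 (10.4 CPM) and Wipf3 (0.387 CPM) in PA of embryo 4, and Slc16a9 in PA of embryo 1 (0.639 CPM).

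The signed difference of SM less its fronts changed between E16.5 and E18.5 at 10 named genes, by edgeR's test of the difference itself with Benjamini-Hochberg adjustment. It was higher at E18.5 for Pcp4l1 (6.59 ± 1.28, adjusted p = 0.0188), Entpd3 (5.95), Tnfrsf11b (5.11), Npas2 (3.24 ± 0.65, adjusted p = 0.0227) and Ptpn3 (2.95 ± 0.63, adjusted p = 0.0348). It was lower for Socs1 (-6.72 ± 1.19, adjusted p = 0.0104), Ndst3 (-3.16 ± 0.66, adjusted p = 0.033), Col26a1 (-1.87 ± 0.37, adjusted p = 0.0226), Tiam1 (-1.58 ± 0.28, adjusted p = 0.0108) and Inhba (-1.53 ± 0.34, adjusted p = 0.0459). For the genes with a higher difference, SM at E16.5 had medians of 0 CPM (Entpd3 and Tnfrsf11b) to 1.65 CPM (Npas2). On leaving out each E18.5 embryo in turn, Entpd3 kept its call each time, and the other 9 lost it at least once. Ndst3, Npas2, Ptpn3 and Inhba lost it each time (adjusted p = 0.0562 for Ndst3 and Npas2 to 0.188 for Inhba).

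Between the coronal and the lambdoid suture at E18.5 the same test gave higher differences at the coronal suture for Entpd3 (5.66), Anxa8 (5.19), Ano1 (4.93), Tshb (4.75) and Enpp6 (4.69). It gave lower ones for the mast cell genes Cma1 (-6.58) and Cpa3 (-6.08), for Socs1 (-6.12), Mfap5 (-4.29) and Agtr2 (-4.06). Among the higher ones, lambdoid SM had medians of 0 CPM for Anxa8, Tshb and Enpp6 and of 0.122 CPM for Entpd3. Sizes that rest on such values are uncertain. In the coronal suture Ano1 and Enpp6 were called lower in SM than in both fronts, and Entpd3 lower than in PA alone. Anxa8 and Tshb were called against neither front. Socs1 was at most 5.87 CPM in the E16.5 and lambdoid libraries, scaled over all first libraries of the series, beside the 7 high front libraries of the coronal suture at E18.5 given above, and the cause was not tested.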

How the results depend on the processing

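For the genes named for the size of their change, 1181 of 1330 recomputed values kept their direction and call, 149 lost the call and 0 changed direction. For the list genes called in a comparison, 4723 of 5306 recomputed values kept the call, 583 lost it and 0 changed direction. Leaving out 1 embryo lost 12 (embryo 2) to 25 (embryo 5) of their 88 calls against FR and 27 (embryo 2) to 43 (embryo 3) of the 244 against PA. Named and list genes alike entered these counts by their size or call in the same libraries. That 0 changed direction therefore follows largely from the choice. Counts of calls within 1.5 times of those reported are not listed. With DESeq2 the counts were 360 genes higher and 649 lower in SM against FR, 2228 higher against PA, 122 called against FR alone (38 of them also between the fronts), 1147 called against PA alone and between the fronts, and 294 higher and 581 lower than both fronts. Without the low-count filter there were 269 higher against FR, 82 against FR alone (30 also between the fronts) and 224 higher than both. With all first libraries of the series in 1 fit there were 220 higher against FR and 84 against FR alone (24 also between the fronts). Fitting only the regions compared gave 238 lower against FR and 221 lower than both. Total counts without TMM gave 2675 higher and 903 lower against PA. Without the replicate block there were 90 higher against FR, 81 higher than both and 21 differing from E16.5. Of the values of genes named for the size of their change 11 lost their call without the block, among them Slc5a7 (edgeR adjusted p = 0.167 against FR and 0.113 against PA) and Ostn against PA (adjusted p = 0.0614).

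With second libraries in place of the first there were 26 higher and 185 lower against FR, 695 higher and 858 lower against PA, 6 against FR alone (3 also between the fronts), 1348 against PA alone (259 also between the fronts), and 23 higher and 182 lower than both. Replicates 1 and 2 alone, whose ids share a leading code, gave 11 and 106 against FR, 353 and 392 against PA, 5 against FR alone (1 also between the fronts), 633 against PA alone (47 also between the fronts), and 8 and 104 for both. Fewer embryos entered that fit.

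Leaving out 1 embryo at a time gave 81 (embryo 5) to 153 (embryo 2) higher and 236 (embryo 5) to 334 lower against FR, 995 to 1330 higher and 1044 (embryo 3) to 1490 lower against PA, 12 (embryo 5) to 44 against FR alone (7, without embryo 1, 3 or 5, to 19, without embryo 2, also between the fronts), 337 (embryo 4) to 993 (embryo 2) against PA alone and between the fronts, 74 (embryo 3 or 4) to 130 higher and 228 (embryo 5) to 322 lower than both, and 12 (embryo 5) to 47 (embryo 2) differing from E16.5. With 5 embryos per region, calls of genes that vary widely between embryos, such as Slc5a7, depend on single libraries, and intervals cover these libraries alone.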

Other observations

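Counts of further lists are given here, beside 2.85% of all genes called against FR and 15.9% against PA. Of 15 retinoic acid genes, Aldh1a2, Rarb and Rxra were higher in SM than in PA, and 0 were called against FR by edgeR, by DESeq2 or at an unadjusted p under 0.05. Of 18 ephrins and Eph receptors, 4 were higher than in PA (Efnb2, Epha3, Epha4 and Epha7), and Ephb2 was lower than in PA. Against FR, Ephb2 was called lower (edgeR adjusted p = 0.0457), but not on leaving out any 1 of the 5 embryos, without the block (adjusted p = 0.207) or with second libraries in place (adjusted p = 0.436). Of 12 matrix metalloproteinases and their inhibitors, 4 were higher than in PA (Mmp2, Mmp11, Mmp13 and Timp2), and Timp1 was lower than in both fronts, by -1.15 and -2.09. Of 8 neuron and glia genes, Tubb3 was lower than in both fronts, and Sox10 and Stmn2 were higher than in PA. Of 6 erythroid genes 1 was higher than in PA. Of 9 leading markers of the Mmp13-expressing osteoblast population of the single-cell data, 3 were lower than in FR, and 4 were higher and 4 lower than in PA, but with second libraries in place 1 was lower than in FR, and 3 were higher and 2 lower than in PA. Of 9 markers of its dura mater population, 5 were higher than in PA, and of 8 markers of its proliferating population, 1 was lower, a call lost with total counts in place of TMM and with second libraries in place. With total counts in place of TMM the genes higher than in PA became 6 of the retinoic acid list, 8 of the ephrins and Eph receptors, 6 of the metalloproteinases and inhibitors, 4 of the erythroid list and 8 of the dura mater population. With second libraries in place the calls against PA of Rarb, Rxra, Epha3, Epha4, Epha7 and Timp2 were lost (edgeR adjusted p = 0.0572 for Timp2 to 0.381 for Epha3), and that of Timp1 against FR (adjusted p = 0.182).

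The hedgehog ligand gene Dhh and the neural crest factor Tfap2b were called higher in SM than in PA, but not with second libraries in place (edgeR adjusted p = 0.0567 and 0.164). The second libraries of these samples held 5530060 to 15697623 counts on genes, with a mitochondrial share of 12.02 to 17.2% and a share of ribosomal protein genes of 2.98 to 3.47%, beside 0.721 to 1.49% in the first libraries.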
